A study of Mus musculus with 25 samples.

Results

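Nodal, Lefty1, Lefty2, Tdgf1, Acvr1b, Acvr2b, Smad7 and Skil, 8 of the 48440 genes in the count table, were followed across 25 libraries of mouse E14 embryonic stem cells. They were chosen by their place in Nodal signalling and by their CPM across CHIR99021 doses, among which that of Lefty1 fell most steeply. Their dose values are therefore a description and carry no test. The choice also named their CPM in the clones, with no direction, so the tests over the clones are not independent evidence about these genes.

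The libraries came from 2 experiments in which beta-catenin signalling was raised. In the first, unedited (WT) E14 cells received CHIR99021, an inhibitor of the kinase GSK3 that stabilises beta-catenin, at 0, 2.5, 5, 7.5 or 10 µM for 48 h, with 2 libraries per dose. In the second, 15 untreated E14 clones each carried 1 of 11 missense mutations at codon 37, 41 or 45 of Ctnnb1, the gene of beta-catenin, on 1 of its alleles and gave 1 library each. All cells were grown in serum medium with leukemia inhibitory factor. The mutations were S37A, S37C, S37F, S37Y, S45C, S45F, S45P, T41A, T41I, T41N and T41S, with S37F, S45F, T41A and T41I represented by 2 clones each. A mutation with 1 clone cannot be told apart from its clone, and the labels do not say whether the libraries of a dose came from separate cultures.

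The study measured a mutational effect score (MES) for each mutation from the fluorescence of a TCF/LEF reporter in other cells. It sorted the clones by their transcriptomes into low (T41S, S45C, T41N; 3 clones), medium (S45P, S45F; 3 clones) and high (S37Y, S37C, S37A, T41A, T41I, S37F; 9 clones) categories, which follow the order of MES. Values below are counts per 1000000 of a library (CPM) of deduplicated molecules from a 3′ method and compare libraries for 1 gene, not levels between genes.

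Nodal is a secreted ligand of the TGF-beta family. It binds a complex of type I and type II activin receptors, which include the proteins of Acvr1b and Acvr2b, together with a co-receptor of the Cripto family encoded by Tdgf1. The activated receptor phosphorylates SMAD2 and SMAD3, which enter the nucleus with SMAD4 and switch on targets that include Nodal itself and its secreted inhibitors Lefty1 and Lefty2. Smad7 and Skil encode inhibitors inside the cell, of which the first acts at the receptor and the second on SMAD proteins in the nucleus. In the mouse embryo the pathway sets up the primitive streak, and with Wnt signalling it acts in the choice between pluripotency and mesendoderm.

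Positions are those of the GRCm38 (mm10) build. Nodal occupies chr10:61417972-61425338 on the plus strand. Lefty2 (chr1:180893108-180899103) and Lefty1 (chr1:180935022-180938400) are plus strand neighbours whose starts lie 41914 bp apart. Tdgf1 is at chr9:110939603-110946158 on the minus strand. On the plus strand are Acvr1b at chr15:101174067-101213684, Acvr2b at chr9:119402118-119434995 and Skil at chr3:31095058-31122577. Acvr2b overlaps the antisense gene Gm47320 and Acvr1b overlaps the microRNA gene Mir6962, and the strand setting of the counting is not given in the sources used here.

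The Lefty genes are close paralogs, so it matters whether reads could be told apart. Their coding sequences were identical at 1017 of 1107 bases (91.9%). The last 500 bases of the transcripts, where a 3′ method places most reads, were 48.1% identical. Of the 50-base windows there, 11 of 451 in Lefty1 and 0 of 451 in Lefty2 occurred in the other transcript, so most reads of that length from the 3′ end belong to 1 of the genes.

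Promoters from the RefSeq table (GRCm38.p6) are described for 4 of the 8 members, Nodal, Tdgf1, Acvr1b and Acvr2b. Those of the ligand and the co-receptor are shown because these genes went opposite ways over the clones. They are the 250 bases before the start site, 5′ to 3′ on the gene's strand (chr10:61417722-61417971 for Nodal and chr9:110946159-110946408, minus strand, for Tdgf1), with motif matches in capitals.
Nodal: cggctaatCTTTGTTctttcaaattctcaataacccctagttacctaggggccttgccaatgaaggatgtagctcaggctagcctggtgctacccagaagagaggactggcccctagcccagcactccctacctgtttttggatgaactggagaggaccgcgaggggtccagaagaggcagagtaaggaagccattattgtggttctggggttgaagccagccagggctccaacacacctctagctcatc
Tdgf1: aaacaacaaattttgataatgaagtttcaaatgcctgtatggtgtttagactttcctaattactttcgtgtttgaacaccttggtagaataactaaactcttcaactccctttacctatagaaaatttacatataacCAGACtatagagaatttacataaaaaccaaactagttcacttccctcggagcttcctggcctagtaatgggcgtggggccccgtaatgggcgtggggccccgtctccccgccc
Both strands were searched for TCF/LEF words, which were CTTTGAA and its close variants spelled CTTTGAT or with a different ending as CTTTGTA or else as CTTTGTT, for the SMAD word CAGAC and for the FOXH1 word AATNCACA. None of the matches given here overlap. Nodal held CTTTGTT from position -242, and Tdgf1 held CAGAC from position -113. Acvr2b held CTTTGTA from position -77 and CAGAC on the other strand from position -233, and Acvr1b held no match. Among all 32851 promoters of 300 bases in the table, 16.9% held a TCF/LEF word, 49.6% held CAGAC and 3.60% held AATNCACA, so such matches are common.

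The depth was modest. Total counts ran from 306157 to 2083398 in the dose libraries and from 495616 to 2025273 in the clones, so a count of 0 allows 1.44 to 9.80 CPM, and intervals cover counting error only. In the dose series 4 libraries (0 µM replicate 2 and replicate 1 at 2.5, 5 and 10 µM) had a mitochondrial share of 0.485 to 0.562% against 0.986 to 1.46% in the other 6. ES cell markers (8 genes, summed) reached 2894 to 3269 CPM in dose libraries, 1405 to 2443 in low clones, 3555 to 4349 in medium clones and 4383 to 5462 in high clones, and all 8 had counts in every library. The sum in the dose libraries joins opposite moves. From 0 to 10 µM the means of Klf4 (271 to 479 CPM) and Tfcp2l1 (431 to 718) rose, and Esrrb changed little (316 to 321). Those of Dppa5a (884 to 611), Sox2 (636 to 464), Nanog (270 to 204), Zfp42 (208 to 154) and Pou5f1 (17.2 to 12.2) fell. Neural markers (4 genes) summed to 125 to 216 CPM in low, 91.0 to 132 in medium and 20.1 to 88.4 in high clones, and fibroblast markers (4 genes) to 48.3 to 165, 4.59 to 21.3 and 4.82 to 16.3, with the highest sum of both in T41S. In the dose libraries the neural sum was 75.0 to 81.9 CPM at 0 µM and 31.6 to 35.9 at 10 µM, and the fibroblast sum was highest at 2.5 µM (84.8 and 92.2). Of the 4 neural genes, only Nes had a higher mean at 10 µM than at 0 µM (23.6 against 18.3 CPM). Only Sox1 had a higher mean in high than in low clones (3.25 against 1.57). Primitive endoderm markers (5 genes) summed to 20.2 to 41.8 CPM in low clones and 7.76 to 195 in high clones, with the highest sum in S37Y. Of the 5, only Dab2 had a lower mean in high than in low clones (13.8 against 20.4 CPM). Mesendoderm markers (6 genes) summed to 7.61 to 10.6 CPM at 0 µM and 31.6 to 35.9 at 10 µM, and to 14.1 to 31.1 in low, 6.28 to 13.3 in medium and 8.53 to 86.9 in high clones. The sum of 86.9 was in S37Y, where Sox17 alone reached 60.2 CPM. From low to high clones the means of Sox17 (2.07 to 17.1 CPM), Eomes (12.3 to 17.0), Foxa2 (1.53 to 1.95) and Gsc (0 to 0.745) rose. Those of Mixl1 (4.84 to 1.78) and Lhx1 (0.377 to 0) fell. The part of all these markers in the results below was not tested. In bulk RNA fewer cells of a type and less RNA per cell cannot be told apart.

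Lefty1, which encodes a secreted inhibitor that binds Nodal and its co-receptor, fell over the whole dose range. At 0 µM it measured 204 and 173 CPM, at 2.5 µM 122 and 95.3, at 5 µM 55.9 and 44.6, at 7.5 µM 35.5 and 27.7, and at 10 µM 32.7 and 24.1. No library at a dose overlapped those at the next lower dose until 7.5 and 10 µM, whose ranges overlapped. The mean was 6.65 times lower at 10 µM (28.4 ± 6.05, SD, n = 2) than at 0 µM (189 ± 22.0, n = 2).

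Lefty2, a second inhibitor of the same kind, started to fall later. It measured 72.8 and 78.7 CPM at 0 µM and 77.6 and 86.1 at 2.5 µM, then 42.8 and 51.8 at 5 µM, 29.0 and 36.9 at 7.5 µM and 39.2 and 24.1 at 10 µM. The lowest dose thus left Lefty2 at its untreated level while Lefty1 was already lower in both libraries. The mean at 10 µM was 2.39 times lower than without drug.

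Nodal itself moved less. The ligand measured 57.1 and 54.2 CPM at 0 µM, 66.1 and 52.6 at 2.5 µM, 51.0 and 39.8 at 5 µM, 37.7 and 35.7 at 7.5 µM, and 58.8 and 38.4 at 10 µM. The libraries at 7.5 µM were the lowest, and 1 library at 10 µM lay above both untreated ones. That library holds 18 Nodal counts, with a 95% Wilson interval of 37.2 to 92.9 CPM.

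Tdgf1, the co-receptor gene, changed in a narrow band. It measured 1862 and 1843 CPM at 0 µM, 1674 and 1859 at 2.5 µM, 1342 and 1379 at 5 µM, 1314 and 1216 at 7.5 µM, and 1307 and 1246 at 10 µM. All 6 libraries at 5 µM and above lay below the 4 at lower doses, and the mean at 10 µM was 1.45 times lower than at 0 µM.

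The receptor genes showed no common direction. Acvr1b, a type I receptor, measured 37.5 and 33.0 CPM at 0 µM, 34.5 and 29.7 at 2.5 µM, 49.4 and 41.3 at 5 µM, 59.5 and 50.7 at 7.5 µM, and 32.7 and 55.7 at 10 µM. It was highest at 7.5 µM, while the libraries at 10 µM lay on either side of the untreated level. Acvr2b, a type II receptor, measured 109 and 95.7 CPM at 0 µM and 51.0 to 86.4 in the 8 treated libraries, all below the untreated ones.

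The intracellular inhibitors went in opposite directions. Smad7 measured 108 and 94.6 CPM at 0 µM, 99.2 and 127 at 2.5 µM, 125 and 121 at 5 µM, 148 and 128 at 7.5 µM, and 163 and 136 at 10 µM, so its mean was 1.48 times higher at the top dose. Skil measured 426 and 391 CPM at 0 µM, 277 and 390 at 2.5 µM, 243 and 303 at 5 µM, 287 and 277 at 7.5 µM, and 203 and 286 at 10 µM, and its mean was 1.67 times lower at the top dose. For both genes the untreated and 10 µM libraries did not overlap.

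**Figure D1:**
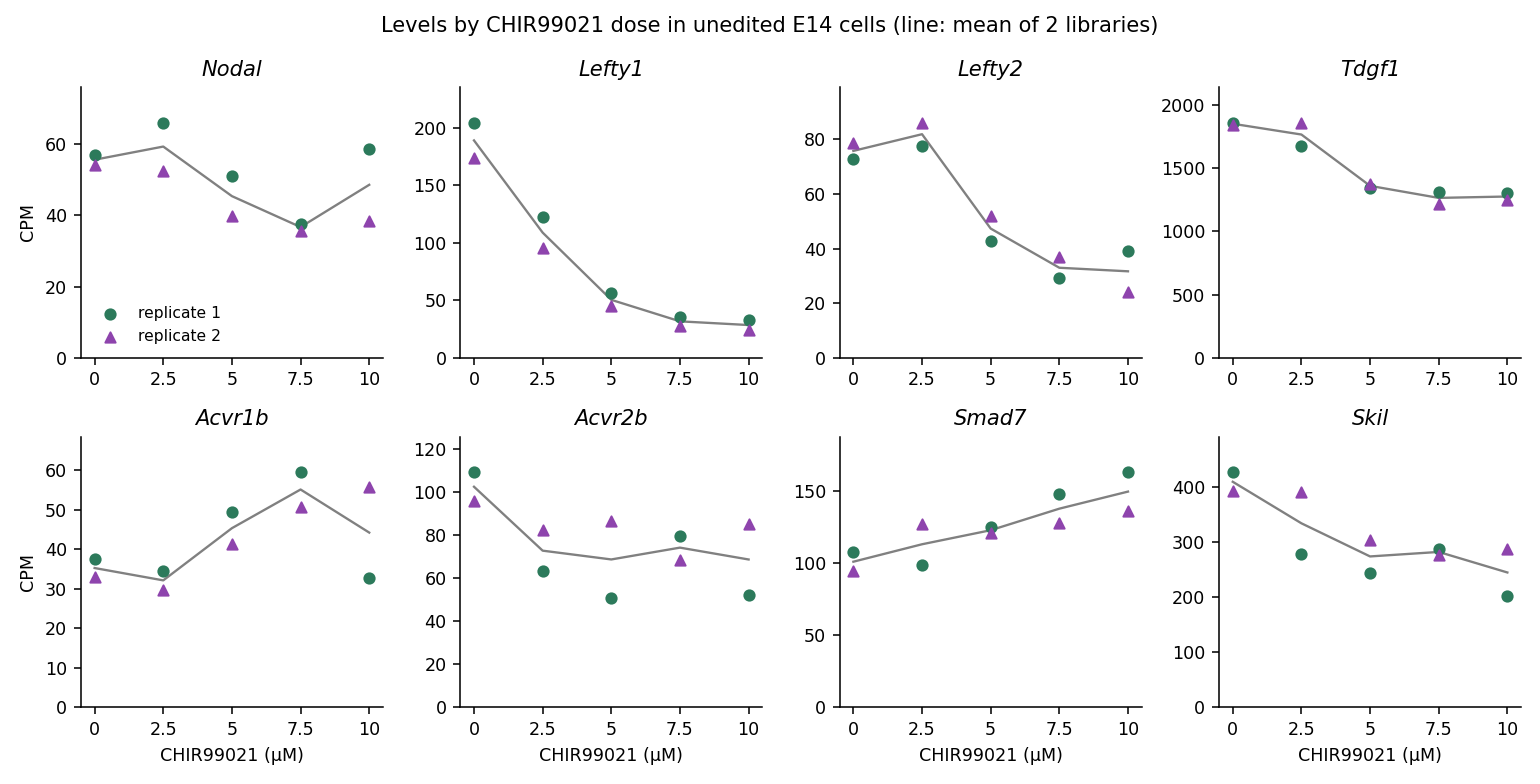
CPM of the 8 genes (vertical axes, each from 0) against CHIR99021 dose in µM, with 1 point per library, a symbol per replicate number and a line through the mean of 2 libraries. Lefty1 falls from 204 and 173 CPM to 32.7 and 24.1, Smad7 rises from 108 and 94.6 to 163 and 136, and the replicates of Nodal and Acvr1b stand far apart at 10 µM.

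Of the 8 members Lefty1 had the lowest ratio of the 10 to the 0 µM mean, on the log2 scale -2.73, followed by Lefty2 (-1.26), Skil (-0.74), Acvr2b (-0.58), Tdgf1 (-0.54) and Nodal (-0.20), while Acvr1b (0.33) and Smad7 (0.57) lay above 0. For Nodal and Acvr1b the sign rested on the second library at 10 µM: without it the log2 ratios were 0.08 and -0.11. For the background, 5.89% of the 10033 genes tested by the edgeR quasi-likelihood test rose with dose and 6.63% fell at an adjusted p under 0.05. Nothing about the members is read from those shares, because dose chose them.

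The second comparison asks whether the same genes follow the strength of the Ctnnb1 mutation. Over the 15 clones, Lefty1, Nodal and Skil fell with MES and Tdgf1, Acvr1b and Smad7 rose. Lefty2 and Acvr2b did not pass the test. So 3 of 8 members rose, where 9.91% of all 10145 genes tested rose, and 3 of 8 fell, where 13% fell (edgeR quasi-likelihood test, adjusted p under 0.05 over all genes). All 8 passed the filter on low counts in each fit. Except where counts were summed per mutation, the fits took each of the 15 clones as an independent unit. Clones of the same mutation share their MES and their category, and the clones cover only 11 mutations. The p-values over the clones may therefore be too small. The median log2 slope was -0.10 per 10000 units of MES over the members and 0.00 over all genes tested.

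The calls on MES depended on which clones entered the fit. Without the 3 low clones, a setting added after the data had been seen, 0 of 8 members passed in either direction, where 6 of all 10082 genes tested rose and 17 fell (edgeR). At an unadjusted p under 0.05, 4 of the 8 passed there (Nodal, Lefty1, Acvr1b and Skil), and all 8 slopes kept their sign. Without T41S alone, 1 member rose (Acvr1b) and 2 fell (Nodal and Skil). The low clones had the lowest ES cell marker sums and the highest fibroblast sums of the 15 clones, as given above.

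Lefty1 separated the high clones from most of the others. It measured 124 CPM in T41S, 83.0 in S45C and 64.6 in T41N, then 125 in S45P and 114 and 71.6 in S45F. Among the 9 high clones the lowest value was 10.4 (S37Y), the median 29.7 and the highest 79.9 (T41I clone A6), and the next highest was 40.6. Apart from T41I clone A6, every high clone lay below every low and medium clone. The order inside the high category did not follow MES. The mutations of lowest MES there, S37Y, S37C and S37A, were at 10.4, 17.6 and 14.1 CPM. The T41A clones were at 30.6 and 29.7, the T41I clones at 18.6 and 79.9, and the S37F clones, of highest MES, at 40.6 and 32.7. Nor did the mean fall from low (90.4) to medium clones (103). The slope of Lefty1 was -0.78 ± 0.21 (SE) on the log2 scale per 10000 units of MES (adjusted p = 0.0113, edgeR), a fitted 4.41-fold fall from the lowest to the highest MES. With the mutated codon as a factor in the model the slope was -0.38 (adjusted p = 0.230, edgeR), and without T41S it was -0.76 (0.0678), so neither passed.

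Lefty2 had the same order of categories with more overlap. It measured 78.5 CPM in T41S, 33.2 in S45C, 34.3 in T41N, 58.6 in S45P, and 62.8 and 62.4 in S45F. The high clones ranged from 10.4 (S37Y) through a median of 26.6 to 85.3 CPM (T41I clone A6). T41I clone A6 was the highest of all 15 clones, and the low and high clones overlapped. The log2 slope was -0.34 ± 0.21 (SE, 95% interval -0.75 to 0.08, adjusted p = 0.269, edgeR). The estimate itself was slightly steeper than that of Nodal (-0.30 ± 0.07) but had a larger SE.

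Nodal was lower in high clones. It measured 110 CPM in T41S, 121 in S45C and 96.8 in T41N, then 108 in S45P, and 107 and 89.9 in S45F. In high clones the lowest was 54.5 (S37F clone H2), the median 78.1 and the highest 104 (T41A clone C1). Of the high clones, only T41A clone C1 lay above the lowest low clone. The log2 slope was -0.30 ± 0.07 (SE, adjusted p = 0.00247, edgeR), a fitted 1.77-fold fall over the range of MES.

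Tdgf1 moved the other way. The co-receptor gene measured 571 CPM in T41S, 744 in S45C and 644 in T41N, then 781 in S45P, and 1190 and 1112 in S45F. High clones ranged from 863 (S37F clone G1) through a median of 1164 to 1402 CPM (S37F clone H2). No low clone overlapped a medium or high clone. Its log2 slope was 0.32 ± 0.08 (SE, adjusted p = 0.00523, edgeR), a fitted 1.83-fold rise. Without T41S the adjusted p was 0.0545 (edgeR).

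Acvr1b, a low-count gene with 7 counts in its shallowest clone, rose from 14.1, 16.6 and 14.1 CPM in T41S, S45C and T41N to a median of 19.4 in high clones. Its highest values were in the S37F clones, at 34.2 and 44.0 CPM. The log2 slope was 0.41 ± 0.12 (SE, adjusted p = 0.0170, edgeR), and without both S37F clones it was 0.17 and did not pass (adjusted p = 0.372, edgeR, a setting added after the data had been seen). Leaving out clone H2 or G1 alone gave 0.0615 and 0.0723. Acvr2b measured 48.0, 55.8 and 26.2 CPM in the same low clones and 34.4 to 66.7 in the high clones. Its log2 slope was 0.11 (95% interval -0.08 to 0.30, adjusted p = 0.455, edgeR).

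Smad7 (chr18:75367529-75395935, plus strand) was raised mainly in high clones. It measured 127 CPM in T41S, 99.6 in S45C and 107 in T41N, then 112 in S45P, and 157 and 135 in S45F. High clones ranged from 161 (T41I clone A6) through a median of 274 to 391 CPM (S37Y). All 9 high clones lay above all 6 others. The order inside the high category did not follow MES, since both S37F clones, the mutation of highest MES, were at 164 and 177 CPM. The log2 slope was 0.50 ± 0.16 (SE, adjusted p = 0.0252, edgeR), and it was 0.27 with the mutated codon in the model (adjusted p = 0.287, edgeR). Leaving out T41S, S45C or T41N gave adjusted p of 0.0721, 0.0877 and 0.0601. Over all 24 alternative fits on MES, these included, the slope of Smad7 passed in 18.

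Skil fell in both steps from low to high clones. It measured 327 CPM in T41S, 373 in S45C and 252 in T41N, then 210.3 in S45P, and 227 and 184 in S45F. High clones ranged from 113 through a median of 131 to 163 CPM. The 3 categories did not overlap. The log2 slope was -0.57 ± 0.07 (SE, adjusted p = 4.38e-06, edgeR), a fitted 2.93-fold fall, with the smallest p of the 8 members.

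**Figure D2:**
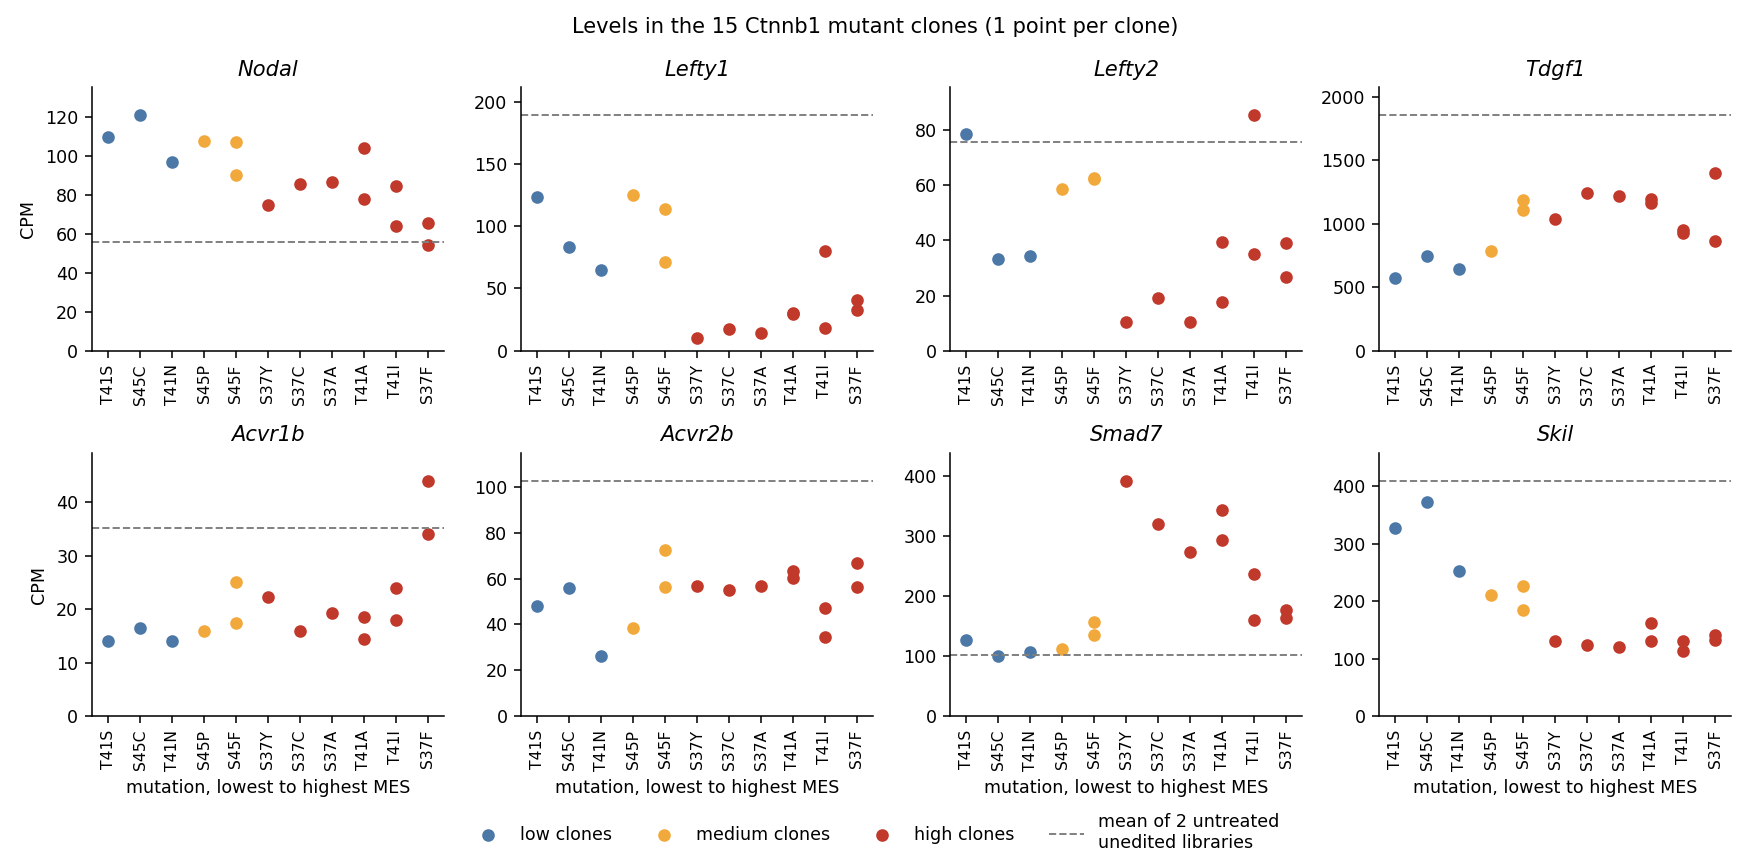
CPM of the 8 genes (vertical axes, each from 0) in the 15 clones, with 1 point per clone, mutations ordered from lowest to highest MES, colours for the low, medium and high categories, and a dashed line at the mean of the 2 untreated unedited libraries. Skil steps down from 252 to 373 CPM in low clones to 113 to 163 in high clones, and Smad7 is above 160 CPM only in high clones.

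The categories were drawn by the study from these same libraries, so their tests are not independent of the transcript levels. Between high and low clones, Tdgf1 and Smad7 were higher and Nodal, Lefty1 and Skil lower, which is 2 of 8 members rising (13.1% of 10452 genes) and 3 falling (16.6%). The log2 differences were -1.65 ± 0.37 (SE) for Lefty1 (adjusted p = 0.00166, edgeR), -1.27 ± 0.12 for Skil (4.57e-08), 1.21 ± 0.24 for Smad7 (0.000637), 0.78 ± 0.14 for Tdgf1 (0.000276) and -0.50 ± 0.16 for Nodal (0.0217). Without T41S the falls of Lefty1 (adjusted p = 0.0758) and Nodal (0.125) did not pass, so 1 member fell (edgeR), and without S45C Nodal did not pass (0.0945). Without T41I clone A6, Lefty2 passed as well (adjusted p = 0.0182), so 4 members fell.

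Which members passed the test differed between the step from low to medium and the step from medium to high clones. From low to medium clones Tdgf1 rose by 0.64 ± 0.17 on the log2 scale (SE, adjusted p = 0.0167, edgeR) and Skil changed by -0.65 ± 0.15 (0.00651), against 3.66% of genes rising and 7.29% falling. From medium to high clones Smad7 rose by 0.98 ± 0.23 (0.0199), while Lefty1 changed by -1.73 ± 0.36 (0.00968) and Skil by -0.62 ± 0.12 (0.00639), against 2.13% rising and 2.37% falling. Lefty1 did not pass between low and medium clones (log2 difference 0.08, 95% interval -0.78 to 0.95, adjusted p = 0.942, edgeR). Nor did Smad7 (0.23, 95% interval -0.33 to 0.80). Tdgf1 did not pass between medium and high clones (0.14, 95% interval -0.12 to 0.41). Whether the steps differed in size was not tested.

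Set beside the untreated unedited libraries, the clones differed in more than their mutations. Lefty1, Tdgf1, Acvr2b and Skil lay below both untreated libraries in all 15 clones. Nodal lay above both in 14 of 15 and Smad7 in 13 of 15. Nodal averaged 55.6 CPM in the untreated libraries and 109 ± 11.9 in low clones (SD, n = 3), while Tdgf1 averaged 1852 and 653 ± 86.7. These differences cannot be told apart from those between the experiments and from the isolation of clones, and they are given without a test. They also mean that Nodal and Tdgf1 in low clones were farther from the untreated level than in high clones, whereas Lefty1, Smad7 and Skil in high clones were the farther ones.

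The sizes of the 2 experiments can be set side by side. Lefty1 averaged 30.5 ± 21.0 CPM in high clones (SD, n = 9) and 28.4 ± 6.05 at 10 µM (n = 2), and Lefty2 31.5 ± 23.1 and 31.6 ± 10.7. Smad7 averaged 262 ± 83.2 CPM in high clones and 150 ± 19.1 at 10 µM, and Skil 132 ± 14.2 and 244 ± 59.2. Tdgf1 fell with dose and rose with MES. Exposure to the drug lasted 48 h, while clones carried the mutation throughout, and no test was made across the experiments.

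Clones of the same mutation show how far single lines spread. The 2 T41I clones differed 4.29-fold in Lefty1 (79.9 and 18.6 CPM), 2.43-fold in Lefty2 (85.3 and 35.1) and 1.48-fold in Smad7 (161 and 237), and the clone with more Lefty had less Smad7. Other pairs were closer for Lefty1, with 1.24-fold for S37F, 1.59-fold for S45F and 1.03-fold for T41A. The SD of log2 CPM within a mutation was 0.77 for Lefty1 against 1.16 over all clones, 0.18 against 0.55 for Skil, and 0.23 against 0.65 for Smad7. For Acvr2b it was 0.22 against 0.38.

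Lefty1 and Lefty2 varied together over the clones. Pearson's r of their CPM was 0.808 and Spearman's rho 0.789 (n = 15, adjusted p = 0.00147 and 0.00225 over 3 pairs, two-sided permutation test with 100000 resamples), and r was 0.765 without S45P clone G5 and T41S clone H8, the clones farthest from the median of Lefty1. For Nodal and Lefty1 r was 0.679 and rho 0.65 (adjusted p = 0.00918 and 0.0157, permutation), and r was 0.743 without S45C clone D3 and S37F clone H2. For Nodal and Lefty2 r was 0.379 and rho 0.379 (adjusted p = 0.163 and 0.165, permutation), and r was 0.54 without the same clones.

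Clones of 1 category cluster, so values inside the 9 high clones are given as well. There r was 0.931 for Lefty1 and Lefty2 and 0.701 without T41I clone A6, but 0.02 for Nodal and Lefty1 and 0.07 for Nodal and Lefty2. Nodal and Lefty1 both had lower means in high clones than in the other categories. From low to medium clones their means went opposite ways, 109 to 102 CPM for Nodal and 90.4 to 103 for Lefty1. The r of 0.02 in 9 clones was not tested and cannot show that a relation is absent there. Within the high clones Lefty1 and Smad7 had r = -0.68, or -0.66 without T41I clone A6.

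**Figure D3:**
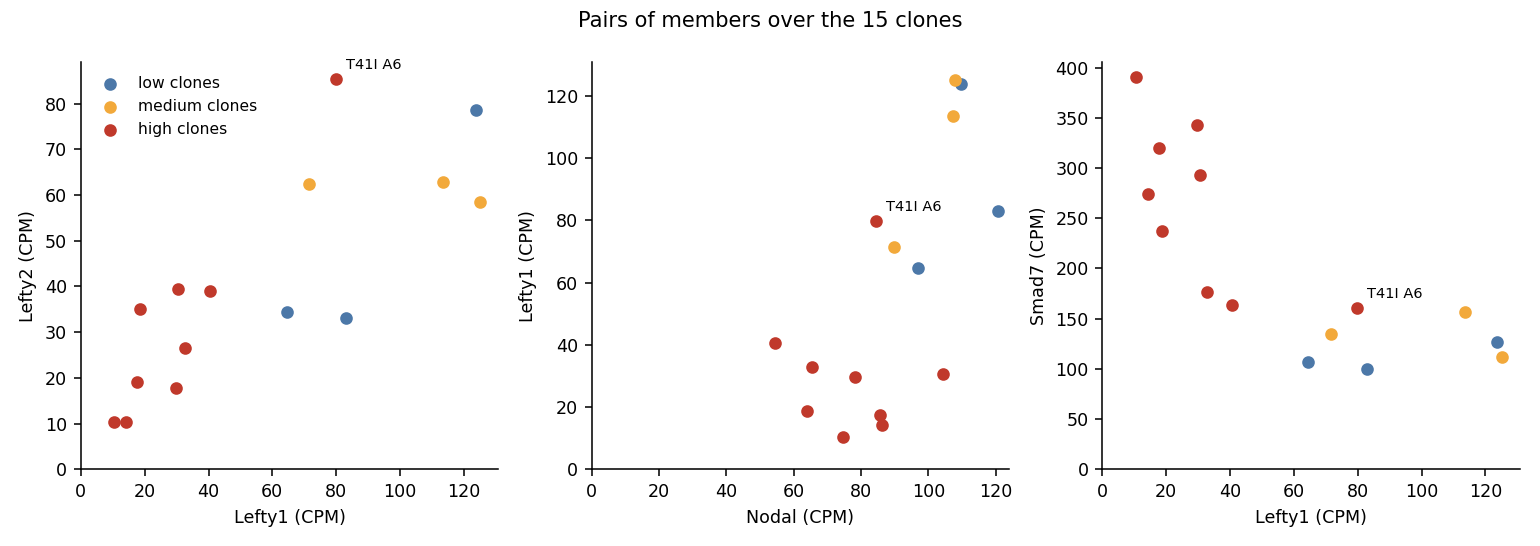
CPM of Lefty2 against Lefty1, Lefty1 against Nodal and Smad7 against Lefty1 over the 15 clones, with 1 point per clone coloured by category and axes from 0. T41I clone A6, at 79.9 CPM of Lefty1 and 85.3 of Lefty2, stands apart from the other high clones and lies near the medium clones.

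Over all 25 libraries, the genes closest to Lefty1 in log2(CPM + 1) among the 9045 genes that averaged 10 CPM or more were Ifitm1 (r = 0.905), Lefty2 (0.867), Foxp1 (0.830), Runx1t1 (0.827) and 2010204K13Rik (0.825). Each kept r at or above 0.78 within the 10 dose libraries and within the 15 clones. Those closest to Nodal were Hspb1 (0.911), Ywhah (0.908), Snrpn (0.906), Ap2m1 (0.898) and Dhx33 (0.874), with 0.501 to 0.870 in the dose libraries and 0.652 to 0.808 in the clones. These correlations are descriptions, and libraries of 1 experiment share their level of Nodal. Smad7 ranked 9032 of 9045 for Lefty1 (r = -0.78).

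The neighbours of Lefty1 and Lefty2 on chromosome 1 were looked at because both inhibitors fell. Tmem63a, 7322 bp past the Lefty1 start, averaged 15.6 CPM at 0 µM and 8.67 at 10 µM, and 11.9 in low and 1.98 in high clones. Sde2 (51.9 and 54.9 CPM, then 66.8 and 75.5) and H3f3a (258 and 227, then 280 and 246) are farther away, and Ephx1 averaged 5.41 to 18.7 CPM over these groups. Near Nodal, Pald1 averaged 89.3 CPM at 0 µM and 38.2 at 10 µM but 35.9 in low and 42.3 in high clones, Eif4ebp2 73.8 and 73.8, then 61.8 and 78.6, and Lrrc20 3.50 and 5.27, then 1.57 and 1.84. No test was made on the neighbours.

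The rest of the pathway was read from a list of 43 other genes. Over the clones 24 of them could be tested, of which 2 rose with MES and 6 fell, where 9.91% of all genes rose and 13% fell. The median log2 slope of the tested genes was -0.12. Inhbb, an activin subunit, rose by 0.69 ± 0.21 on the log2 scale per 10000 units of MES (SE, adjusted p = 0.0214, edgeR). It measured 5.65 to 6.05 CPM in low clones, on 3 to 10 counts, and a median of 23.1 in high ones. With dose its mean went the other way, from 16.4 CPM at 0 µM to 5.15 at 10 µM, which was not tested. Pcsk6, a convertase that can process Nodal, rose by 0.45 ± 0.12 (adjusted p = 0.0100), from a mean of 32.5 to 73.3 CPM. The other convertase, Furin, had a slope of -0.72 ± 0.18 (0.00561), from a mean of 55.5 to 17.3 CPM.

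Among the falling genes were those of the SMAD proteins that carry the signal. Smad3 had a slope of -0.68 ± 0.15 (SE, adjusted p = 0.00274, edgeR), with 52.0 CPM in T41S, 44.4 in T41N and 15.1 in S45C, and 8.39 to 15.5 in high clones. Smad2 had a slope of -0.23 ± 0.08 (0.0420), from a mean of 54.5 to 40.7 CPM. Tgfb2, a TGF-beta ligand, had the steepest slope of the list, -1.90 ± 0.22 (4.05e-06), with 112 CPM in T41S, 72.6 in T41N, 25.6 in S45C and 2.33 to 8.27 in high clones. Smurf2, a ubiquitin ligase of the pathway, and Ppm1a, a SMAD phosphatase, had slopes of -0.23 ± 0.07 (0.0309) and -0.24 ± 0.06 (0.00649). Without the 3 low clones none of the 23 genes tested passed (edgeR, 0 rising and 0 falling, and 5 at an unadjusted p under 0.05), and without T41S 2 fell and 0 rose.

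**Figure D4:**
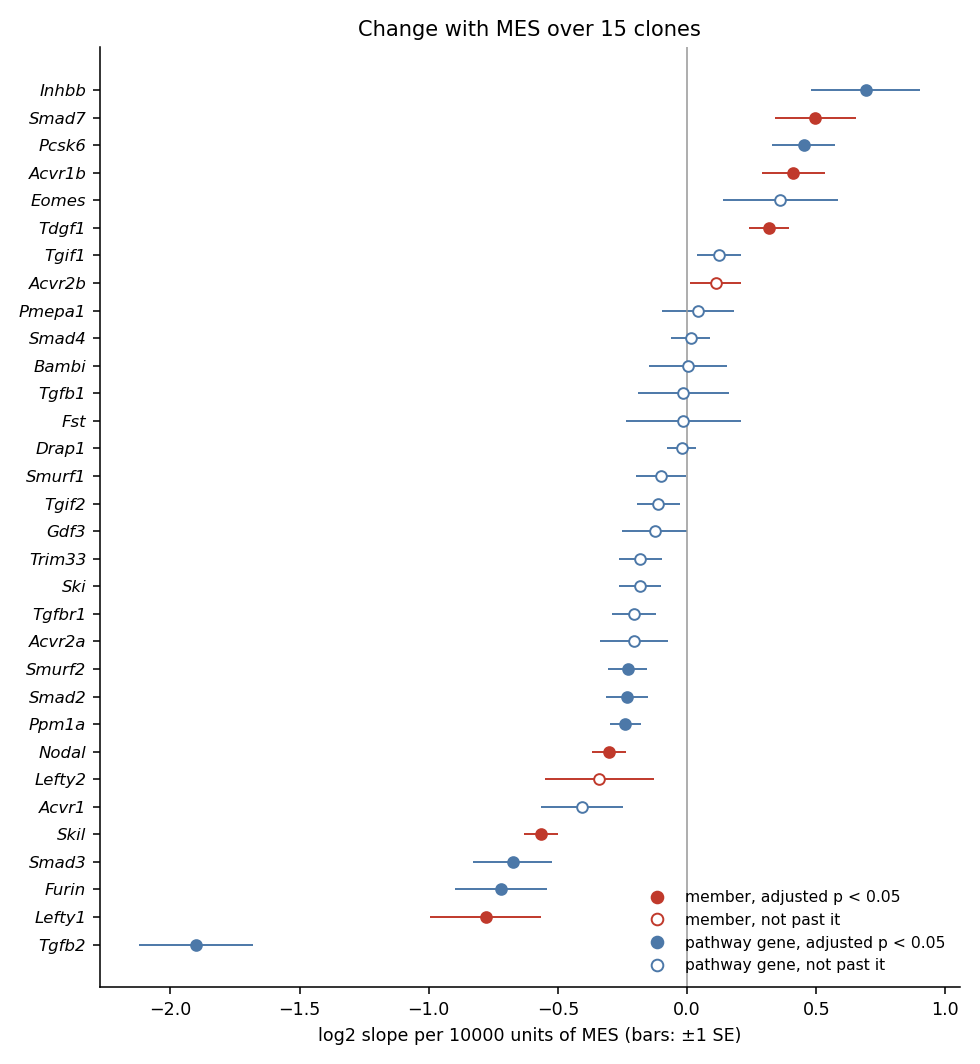
Log2 slope per 10000 units of MES with ±1 SE (horizontal axis) for the 8 members in red and the 24 pathway genes tested in blue, filled where the adjusted p (edgeR) is under 0.05. Tgfb2 (-1.90), Lefty1 (-0.78) and Furin (-0.72) lie farthest below 0, and Inhbb (0.69) and Smad7 (0.50) farthest above.

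With dose, 26 of the 43 could be tested, of which 3 rose and 4 fell, where 5.89% of all genes rose and 6.63% fell. Mixl1, a mesendoderm target, rose by 0.41 ± 0.06 on the log2 scale per µM (SE, adjusted p = 9.47e-06, edgeR). It went from 0.544 and 1.06 CPM at 0 µM (1 count in each library) to 13.1 and 17.3 at 10 µM (4 and 23 counts). The library with 4 counts had a total of 306157, where a count of 0 allows 9.80 CPM, so the size of the rise is poorly measured. Tgfb2 rose by 0.18 ± 0.04 (0.00252), from 4.35 and 6.38 CPM to 26.1 and 28.6, with the largest step at 2.5 µM. Smad3 rose by 0.06 ± 0.02 (0.0421), from a mean of 30.4 to 50.2 CPM.

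The falling genes were a ligand and nuclear inhibitors. Gdf3, a ligand that acts through the same receptors, changed by -0.08 ± 0.02 on the log2 scale per µM (SE, adjusted p = 0.00527, edgeR), from a mean of 118 to 63.2 CPM. Ski, the relative of Skil, changed by -0.09 ± 0.02 (0.00134), from 100.3 to 58.9 CPM. The repressors Tgif1 and Tgif2 changed by -0.05 ± 0.01 (0.00482) and -0.10 ± 0.02 (0.000569), from 230.0 to 161 and from 61.3 to 32.3 CPM. None of these 4 passed in the fit on MES, where their adjusted p ran from 0.110 to 0.518 (edgeR). Of the pathway genes past the threshold in both fits, Tgfb2 and Smad3 rose with dose and fell with MES, and the difference between the experiments was not tested.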

How the data were processed

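RNA was extracted from E14 cells, made into libraries by a modified mcSCRB-seq protocol, which counts cDNA 3′ ends with unique molecular identifiers (UMIs), and sequenced. Per the study's methods and the submitters' processing notes (FastQC 0.73, UMI-tools, Picard, bedtools 2.30.0, featureCounts 2.0.1), the authors aligned reads to mm10 with STAR, removed duplicate UMIs and counted reads per gene. The deposited values are raw gene counts for 25 libraries. The annotation release and strand setting are not given in the sources used here. Gene IDs were matched to GENCODE M21 (48058 of 48440).

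CPM were counts per 1000000 of a library's total. Tests were edgeR 4.0.16 quasi-likelihood fits (R 4.3.3) with TMM scaling, a minimum count of 10 in filterByExpr and Benjamini-Hochberg adjustment over all genes tested, called at an adjusted p under 0.05. The clones were fitted on MES per 10000 units, read from the study's score table, or on category, and the unedited libraries on dose in µM. The fits were checked on simulated counts. Correlations of CPM used 100000 permutations. Fits named DESeq2 used version 1.42.0.

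The members and the gene lists were chosen with earlier results of these data known. Named genes were the 8 members, pathway genes called in the MES or dose fit, the 5 genes closest to Lefty1 and to Nodal, and genes starting within 100 kb of Nodal, Lefty1 or Lefty2. Some items under this rule are not reported here. Alternatives covered scaling, filtering, tool, the replicate block, the rank of MES or dose, counts summed per mutation, the mutated codon, mitochondrial share and each library left out.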

Additional observations from a re-analysis of the deposited data

Results flagged for a closer look

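In 8 groups looked at, the 9 high clones per member, 2 genes had a highest clone far from the next by Dixon's criterion on CPM. Chance meets the criterion in about 1 group in 20 where groups are independent. The 2 flags are not independent, since Lefty1 and Lefty2 had r = 0.931 in these clones. On the log2 scale, used in the fits, the criterion was not applied. Lefty1 measured 79.9 CPM in T41I clone A6 against 40.6 in the next highest high clone, and Lefty2 measured 85.3 CPM in the same clone against 39.5. No other member met the criterion in the high clones, and T41I clone A6 also had the lowest Smad7 of the 9 (161 CPM). The clone's neural marker sum, 88.4 CPM, was the highest among high clones and its ES cell sum, 4383 CPM, the lowest, and their part in its Lefty levels was not tested.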

How the results depend on the processing

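Leaving out 1 clone moved the genes rising with MES between 499 and 1084 and those falling between 700 and 1370, the members rising between 1 and 3 and falling between 2 and 3, and the pathway genes rising between 0 and 2 and falling between 2 and 6, each with its lowest count without T41S. In the high against low comparison the members rising stayed at 2 and those falling lay between 1 and 4. For dose, leaving out 1 library gave 252 to 625 rising and 275 to 704 falling genes, and 1 to 4 rising and 3 to 4 falling pathway genes. The lowest gene counts came without 0 µM replicate 1, and without 0 µM replicate 2 there were 364 and 415. Without the 3 low clones (12 clones, a setting added after seeing the data) 6 genes rose and 17 fell, with 0 members and 0 pathway genes in either direction. With the mutated codon as a factor 1 member rose and 2 fell, 1 pathway gene rose and 8 fell, and the slope of Lefty2 became 0.021. Without a filter on low counts 10 pathway genes fell with MES. The ratio of 10 to 0 µM, with 1 library left out, ran on the log2 scale from -0.53 to 0.079 for Nodal, -2.97 to -2.53 for Lefty1, -1.65 to -0.95 for Lefty2, -0.57 to -0.50 for Tdgf1, -0.11 to 0.66 for Acvr1b, -0.97 to -0.27 for Acvr2b, 0.43 to 0.69 for Smad7 and -1.01 to -0.51 for Skil. Pearson's r ran from 0.638 to 0.751 for Nodal and Lefty1, 0.287 to 0.480 for Nodal and Lefty2, and 0.760 to 0.861 for Lefty1 and Lefty2. With DESeq2 and with RLE scaling the members' counts stayed at 3 rising and 3 falling. The causes were not tested. With a replicate block, 943 genes rose and 1284 fell with MES and the same 6 members passed. Dose libraries with the same replicate number were not treated as pairs, as some correlations of their deviations from the group means lay under 0.1. These were -0.20 to -0.15 between 0 µM and each of 2.5, 5 and 10 µM, 0.14 to 0.16 among those 3 doses and -0.06 to 0.03 with 7.5 µM, an order of signs that follows the 4 libraries of low mitochondrial share. With that share as a block 699 genes rose and 820 fell with dose, and with the replicate block 538 and 602. Lefty and Nodal counts of 10 to 21 limit single values, and not only in sparse libraries. S37Y, with 2025273 total counts, held 21 counts of Lefty1 and 21 of Lefty2. S37A, with 1343404, held 19 and 14.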
